A study of Mus musculus with 14 samples.

Results

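Chemokines are small secreted proteins that steer leukocytes through tissue, and each binds 1 or more receptors of the G-protein-coupled class on the cell it attracts. They are named by the spacing of their first cysteines (CC, CXC, CX3C and XC). Some, such as Ccl2, are made on demand after injury, while others, such as Cxcl12 and Ccl19, keep leukocytes and lymphoid structures in place in the resting lung. A list of 36 mouse genes, 27 ligands and 9 receptors, was followed here in whole lung 1 month after carbon fibre was instilled into the trachea. Probes were assigned through their RefSeq accession: 35 genes had a matched probe and 34 of them were measured well above background on at least 3 of 14 arrays, out of 30567 genes tested in all. Cxcl11 had no matched probe, and Ccr1 was well above background on only 2 arrays.

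The lungs came from male C57BL/6N mice of unstated age. VCF mice (n = 3) received carbon fibre before recycling, CCF mice (n = 3) the fibre after carbonization, and RCF mice (n = 3) the fibre after firing, each at 200 µg per mouse, and control mice (n = 5) received the PBS vehicle. Each array carried whole-lung RNA, in which fewer cells of a type and less RNA per cell cannot be told apart. The design text describes the samples as biologically independent. A level below is the log2 processed intensity of a probe minus the 75th percentile of its own array, so that 0 is that percentile, and levels of different genes are not compared.

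The marker genes of alveolar and airway epithelium that were measured, Sftpc and Scgb1a1 among them, were well above background on all 14 arrays. Of the 3 slides, the first had 2 VCF, 2 CCF, 1 RCF and 2 control arrays (numbers 1 and 2 of each, RCF 1 only). The second had the VCF, CCF and control arrays numbered 3, and the third, scanned later, had RCF 2 and RCF 3 with the remaining control arrays. The scaling percentile was low on 3 arrays: it lay between 277 and 375.3 intensity units on VCF 1, CCF 2 and RCF 1, and between 890.8 and 2953 on the others. Control 2 was the highest array in its adipocyte markers, whose mean was 2.77 above the control mean. It was also highest in its eosinophil, basophil and mast cell markers, 1.11 above it. The adipocyte markers spread widely over the fibre arrays too, with VCF 2 at 1.96, CCF 1 at 1.26 and CCF 2 at -1.72.

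Few of the chemokine genes changed past the threshold, an adjusted p of 0.05 by limma with Benjamini-Hochberg adjustment over all genes. Against control, 0 of 34 passed in VCF lungs, where 0.0851% of all genes passed, 1 passed in CCF lungs (all genes, 5.99%, of which lower, 2.21%), and 0 passed in RCF lungs (all genes, 0.154%). Over the mean of the 3 fibres, 2 passed (all genes, 2.58%, of which lower, 0.579%). The gene lower in CCF lungs was Ccr7, and the pair lower over the mean of the fibres was Ccr7 and Cx3cl1. At an unadjusted p under 0.05, limma counted 1 member higher and 11 lower in VCF lungs, where 4.97% of all genes were higher and 4.99% lower. In CCF lungs it counted 6 higher and 3 lower (all genes, 12.9% and 10.8%), in RCF lungs 1 higher and 3 lower (all genes, 8.78% and 4.15%), and over the mean 2 higher and 6 lower (all genes, 11.5% and 8.06%).

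The median difference of the 34 members was -0.31 in VCF lungs, 0.04 in CCF lungs and -0.20 in RCF lungs, beside 0, 0 and 0.06 for all genes tested. In VCF lungs 27 members had a negative difference and 7 a positive one. In CCF lungs 15 were negative and 19 positive, and in RCF lungs 25 were negative and 9 positive. The mean level of the 34 members, set to 0 in control lungs, was -0.51, -0.18 and -0.09 on VCF 1, 2 and 3. It ran between -0.15 and 0.21 in control lungs, so that VCF 3 lay within the control range. VCF 1, the lowest, is among the 3 dimmest arrays. In 9 members all 3 VCF arrays lay below all 5 control arrays and in 0 members above, beside 3.91% and 3.46% of all genes. In CCF lungs 2 members lay wholly below and 1 above (all genes, 6.46% and 9.89%), and in RCF lungs 4 below and 1 above (all genes, 3.77% and 7.62%). Over all 9 fibre arrays 2 members lay wholly below and 0 above (all genes, 0.562% and 1.08%). Erythroid markers, 5 of 7 measured, also lay low in VCF lungs: their mean was between -2.15 and -1.02 in VCF lungs, 0.34 and 0.75 in CCF lungs and -0.45 and 0.15 in RCF lungs, against -0.98 to 0.80 in control lungs, and their part in the VCF differences was not tested. The 3 fibres share the control arrays, so these counts are not independent of each other.

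**Figure D1:**
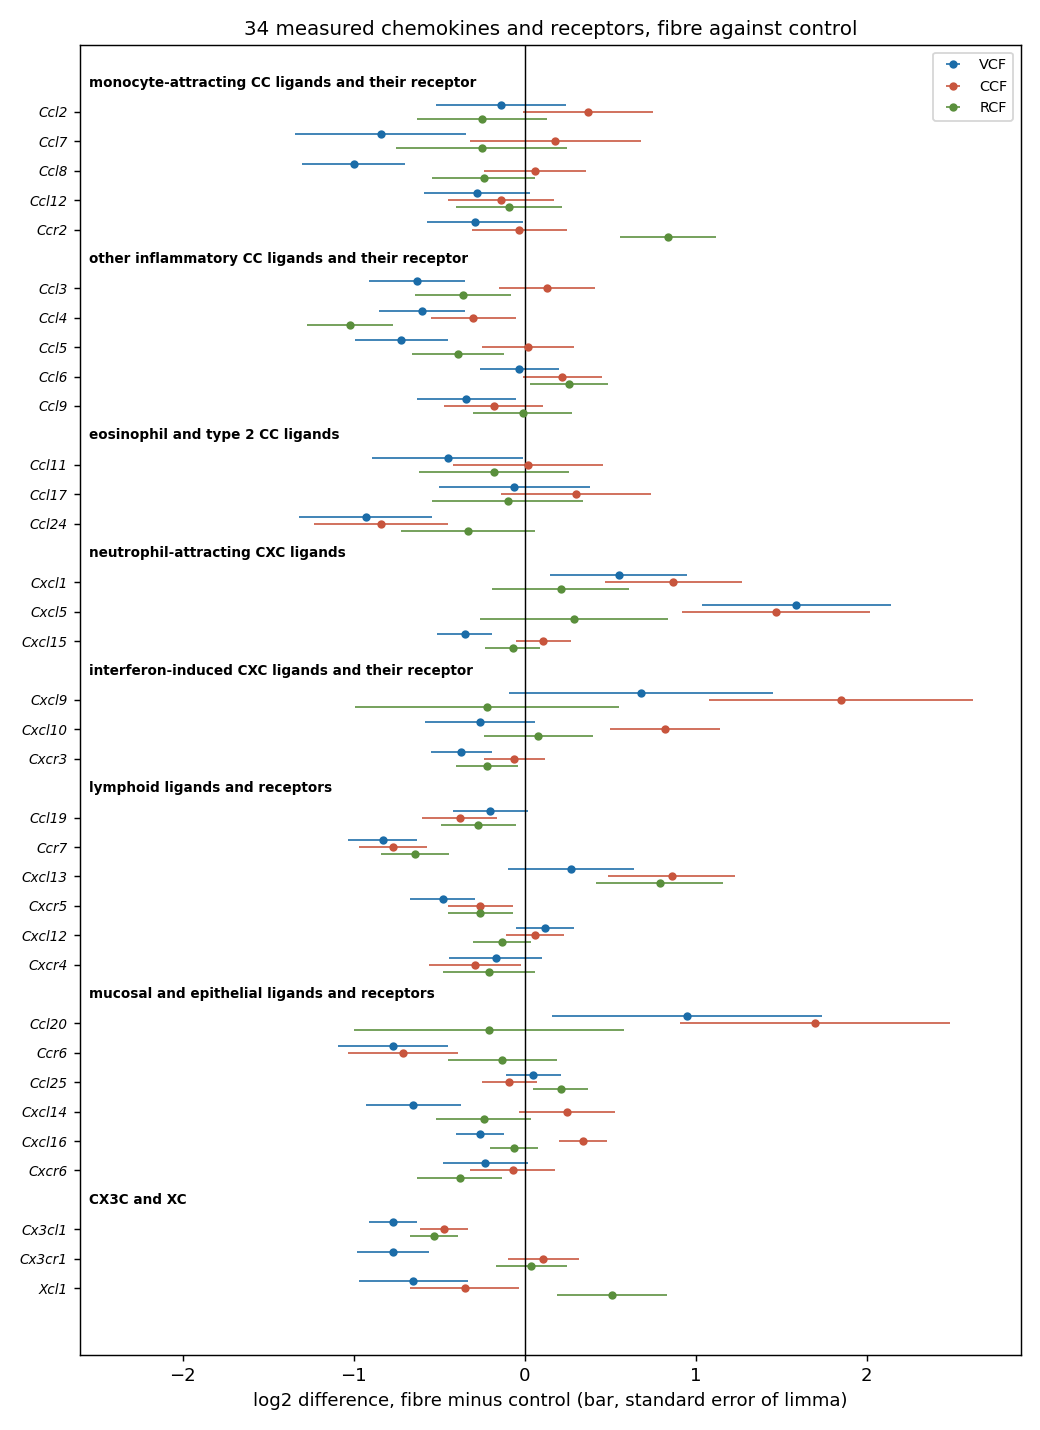
Each row is 1 of the 34 measured genes, grouped by role, and each point is the log2 difference from control in VCF, CCF or RCF lungs, with the standard error of limma as a bar. Most VCF points lie left of 0 (27 of 34), while CCF points lie on both sides (15 left, 19 right); Cxcl5, Cxcl9 and Ccl20 have the widest bars and were well above background on 5, 9 and 7 of the 14 arrays.

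Among the lymphoid chemokines, Ccr7, the receptor that brings naive T cells, B cells and mature dendritic cells into lymphoid tissue, was the gene called lower in CCF lungs and over the mean of the fibres. Ccr7 stood at 1.43, 2.01 and 2.32 in VCF lungs, at 2.02, 1.80 and 2.13 in CCF lungs and at 1.89, 2.12 and 2.32 in RCF lungs, against 2.64, 2.60, 2.97, 2.53 and 3.01 in control lungs. All 9 fibre arrays lay below all 5 control arrays. The mean over the 3 fibres was 1.68-fold below control, a log2 difference of -0.74 ± 0.15 (SE; adjusted p = 0.0347). In CCF lungs Ccr7 fell by 0.77 ± 0.20 on the log2 scale (SE; adjusted p = 0.0478). In VCF lungs the difference was -0.83 ± 0.20 (adjusted p = 0.165), and in RCF lungs it was -0.64 ± 0.20 (adjusted p = 0.206).

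A second Ccr7 probe gave -0.82 ± 0.18 over the mean of the fibres (adjusted p = 0.038 over 37970 probes) and -0.94 ± 0.23 in CCF lungs (adjusted p = 0.0369). Within slides the Ccr7 difference from control was -0.90 and -0.65 in VCF lungs on slides 1 and 2, -0.71 and -0.84 in CCF lungs on the same slides, and -0.73 and -0.55 in RCF lungs on slides 1 and 3. The Ccr7 call over the mean of the fibres was lost when any 1 of 10 arrays was left out (control 1, 3, 4 or 5, VCF 2, CCF 1 or 2, or RCF 1, 2 or 3), with adjusted p between 0.0518 and 0.0878. The Ccr7 call in CCF lungs was lost without control 1, 3, 4 or 5, VCF 2, CCF 1, 2 or 3, or RCF 2 or 3 (adjusted p between 0.0602 and 0.166). With the 3 dimmest arrays left out, Ccr7 gave -0.60 over the mean (adjusted p = 0.0744), and with all genes tested, dim ones included, its adjusted p was 0.103.

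Of the cells that carry Ccr7, B cells had markers below control after all 3 fibres, and T cells and dendritic cells in VCF lungs, while their markers overlapped control in CCF and RCF lungs. The mean of 8 B cell markers, set to 0 in control lungs, ran between -0.76 and -0.48 in VCF lungs, between -0.76 and -0.42 in CCF lungs and between -0.63 and -0.45 in RCF lungs, against -0.41 to 0.30 in control lungs. All 9 fibre lungs thus lay below the lowest control lung. All 8 genes, from Cd79b to Blk, had negative differences after each fibre. Of them 1 passed the threshold, Cd79b in CCF lungs, at -0.98 ± 0.19 (adjusted p = 0.0174), where 2.21% of all genes were called lower. Of the 8, Blk was well above background on 8 arrays and the others on 13 or 14. The mean of 9 T cell markers ran between -0.43 and -0.38 in VCF lungs, between -0.01 and 0.16 in CCF lungs and between -0.25 and 0 in RCF lungs, against -0.14 to 0.15 in control lungs. The mean of 7 dendritic cell markers ran between -0.60 and -0.36 in VCF lungs, between -0.35 and 0.47 in CCF lungs and between -0.15 and 0.09 in RCF lungs, against -0.21 to 0.08 in control lungs. The part of these cells in the Ccr7 difference was not tested. The 4 measured lymph node markers overlapped between fibre and control lungs (-0.97 to 0.43 over the fibre lungs, against -0.58 to 0.32 in control lungs). Of 6 thymus markers, Rag1, Rag2 and Ptcra were well above background on 0 arrays and Arpp21 on 1, and the mean of the other 2, Dntt and Ccr9, was between -1.40 and -0.44 in VCF lungs, -0.74 and 1.24 in CCF lungs and -0.42 and 0.03 in RCF lungs, against -0.36 to 0.45 in control lungs.

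**Figure D2:**
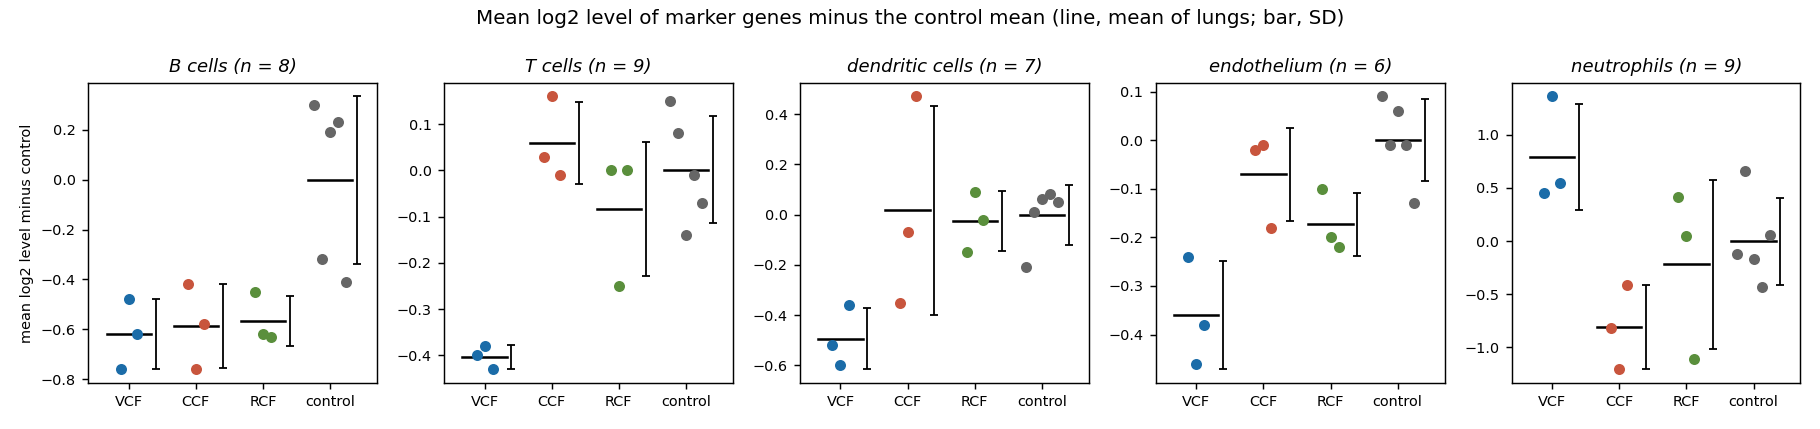
Each point is 1 lung and gives the mean log2 level of the measured marker genes of a cell type minus the mean of the control lungs, with the group mean as a line and the SD as a bar. B cell markers lie below every control lung in all 9 fibre lungs, T cell and dendritic cell markers in all 3 VCF lungs, and neutrophil markers run between 0.45 and 1.36 in VCF lungs and between -1.20 and -0.41 in CCF lungs.

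Ccl19, a ligand of Ccr7 that marks the T cell zones of lymphoid tissue, had differences between -0.38 and -0.20 for the 3 fibres, with overlapping arrays. Cxcr5, the receptor by which B cells enter follicles, stood at -0.08, 0.61 and 0.58 in VCF lungs, at 0.64, 0.49 and 0.66 in CCF lungs and at 0.86, 0.49 and 0.44 in RCF lungs, against 1.01, 0.65, 1.15, 0.78 and 0.68 in control lungs. The VCF arrays lay below all control arrays, and the difference was -0.48 ± 0.19 (adjusted p = 0.401); in CCF and RCF lungs it was -0.26 ± 0.19 for each (adjusted p = 0.45 and 0.628). Its ligand Cxcl13, made by follicular stroma, had positive differences of 0.27, 0.86 and 0.79 in VCF, CCF and RCF lungs (adjusted p between 0.187 and 0.908). Control 2, at -1.96, stood above the other 4 control arrays, and without it the RCF difference was 1.04 ± 0.31 (adjusted p = 0.171). Cxcl12, which retains cells in bone marrow and tissue, and its receptor Cxcr4 gave differences between -0.29 and 0.12 with overlapping arrays, and a second Cxcr4 probe had the opposite sign after each fibre (0.52, 1.19 and 0.53 in VCF, CCF and RCF lungs). A second Cxcl12 probe gave -0.45, 0.29 and 0.33 in VCF, CCF and RCF lungs, opposite in sign to the first in VCF and RCF lungs. Of the 6 lymphoid genes, 1 was called lower in CCF lungs (all genes lower, 2.21%) and 0 were called in VCF or RCF lungs (all genes, 0.0851% and 0.154%).

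Cx3cl1, the membrane-bound chemokine fractalkine of endothelial and epithelial cells, was the other gene lower over the mean of the fibres. Cx3cl1 stood at 2.31, 2.05 and 2.37 in VCF lungs, at 2.72, 2.50 and 2.40 in CCF lungs and at 2.34, 2.47 and 2.64 in RCF lungs, against 3.05, 2.72, 2.96, 3.08 and 3.24 in control lungs. All 9 fibre arrays lay below the 5 control arrays, but the gap was narrow: the highest CCF array was at 2.715 and the lowest control array, control 2, at 2.724. The mean over the fibres was 1.5-fold below control, a log2 difference of -0.59 ± 0.11 (SE; adjusted p = 0.026). By fibre, Cx3cl1 gave -0.77 ± 0.14 in VCF lungs (adjusted p = 0.0814), -0.47 ± 0.14 in CCF lungs (adjusted p = 0.0731) and -0.53 ± 0.14 in RCF lungs (adjusted p = 0.155). Without control 2 the CCF difference in Cx3cl1 was -0.54 (adjusted p = 0.0342). That was the 1 fit that passed of 14 limma fits without 1 array, where the highest adjusted p was 0.201.

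Within slides Cx3cl1 differed from control by -0.71 and -0.59 in VCF lungs on slides 1 and 2, by -0.28 and -0.56 in CCF lungs on the same slides, and by -0.55 and -0.61 in RCF lungs on slides 1 and 3. The Cx3cl1 call over the mean was lost without control 1, control 4, control 5, CCF 2 or RCF 2 (adjusted p between 0.0532 and 0.0913), and it gave an adjusted p of 0.0794 without the 3 dimmest arrays and 0.0911 with all genes tested. The mean of 6 endothelial markers ran between -0.46 and -0.24 in VCF lungs, between -0.18 and -0.01 in CCF lungs and between -0.22 and -0.10 in RCF lungs, against -0.13 to 0.09 in control lungs. Of these, Plvap was called lower in VCF lungs (-1.14 ± 0.17, adjusted p = 0.0461) and Tek higher in CCF lungs (0.76 ± 0.19, adjusted p = 0.0413). Of all genes, 0.0851% were called in VCF lungs and 5.99% in CCF lungs. The part of these markers in the Cx3cl1 difference was not tested.

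**Figure D3:**
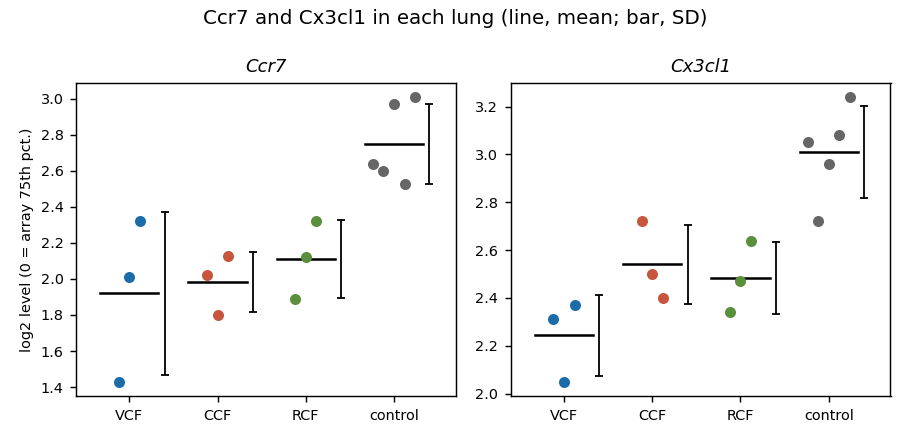
Each point is 1 lung, with its log2 level of Ccr7 (left) or Cx3cl1 (right), the group mean as a line and the SD as a bar. In both genes all 9 fibre lungs lie below the 5 control lungs, by the narrowest margin for Cx3cl1 in CCF lungs (2.715 against 2.724).

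The promoter of Cx3cl1 is shown because it is the called ligand. RefSeq's sequence on GRCm38.p6 (chr8:94772060-94772179, + strand) covers the 120 bases before its start site, in lower case because it held none of the 3 motifs searched.
Cx3cl1: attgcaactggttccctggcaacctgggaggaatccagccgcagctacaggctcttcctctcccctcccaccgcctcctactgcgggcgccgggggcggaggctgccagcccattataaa
The motifs were the κB site bound by NF-κB (GGGA, 2 bases of any kind, TTCC), the core of the interferon-stimulated response element, ISRE (GAAA, 2 bases of any kind, GAAA), and the GAS element of interferon-induced genes (TTC, 3 bases of any kind, GAA), each searched on both strands from 250 bases before to 50 after the start site. A match is a description of the letters and shows no binding. The table held this window for 25 of the member genes.

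Cx3cr1, the receptor of Cx3cl1, borne by patrolling monocytes and some macrophages and lymphocytes, was low on every VCF array but was not called. It stood at 0.09, -0.10 and -0.20 in VCF lungs, at 1.03, 0.60 and 0.83 in CCF lungs and at 0.89, 0.80 and 0.56 in RCF lungs, against 1.17, 0.74, 0.44, 0.98 and 0.19 in control lungs. The VCF arrays lay below all others, with a difference from control of -0.77 ± 0.21 (adjusted p = 0.216), while CCF and RCF lungs gave 0.11 ± 0.21 and 0.04 ± 0.21 (adjusted p = 0.809 and 0.971). A weaker second Cx3cr1 probe gave -0.68 ± 0.53 in CCF lungs, opposite in sign. CCF lungs were 0.89 ± 0.24 above VCF lungs (adjusted p = 0.142) and RCF lungs 0.82 ± 0.24 above VCF lungs (adjusted p = 0.336), where the second probe gave 0 ± 0.60 and 0.96 ± 0.60. RCF lungs were also 1.15 ± 0.36 above VCF lungs in Xcl1 (adjusted p = 0.381). This ligand, which attracts cross-presenting dendritic cells, was well above background on 1 VCF, 1 CCF, 2 RCF and 3 control arrays and was not called.

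The ligands that recruit monocytes, Ccl2, Ccl7, Ccl8 and Ccl12, were not raised past the threshold 1 month after any fibre. Ccl8, a ligand of Ccr2 and other receptors, was at -2.56, -2.54 and -2.23 in VCF lungs, at -1.36, -2.27 and -0.51 in CCF lungs and at -1.63, -1.49 and -1.94 in RCF lungs, against -1.34, -1.37, -1.33, -1.71 and -1.47 in control lungs. All VCF arrays were below all control arrays, a difference of -1 ± 0.30 or 2-fold (adjusted p = 0.256), while CCF arrays spread to both sides of control (0.06 ± 0.30, adjusted p = 0.932) and RCF arrays gave -0.24 ± 0.30 (adjusted p = 0.819). Ccl2, the main monocyte attractant, differed by -0.14 in VCF lungs, 0.37 in CCF lungs and -0.25 in RCF lungs, each with a standard error of 0.38 and overlapping arrays. Ccl7 and Ccl12 ranged between -0.84 and 0.18 over the 3 fibres, and neither separated from control.

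Ccr2, the receptor that lets classical monocytes leave the bone marrow, was the member whose RCF arrays all lay above control. It stood at -0.57, -0.81 and -0.99 in VCF lungs, at -1, -0.01 and -0.59 in CCF lungs and at 0.09, 0.83 and 0.08 in RCF lungs, against -0.24, -1.04, -0.72, -0.10 and -0.42 in control lungs. The RCF arrays lay above all other arrays. The RCF difference from control was 0.84 ± 0.28 or 1.79-fold (adjusted p = 0.218), beside -0.29 ± 0.28 in VCF lungs (adjusted p = 0.836) and -0.03 ± 0.28 in CCF lungs (adjusted p = 0.965). RCF lungs were 1.12 ± 0.31 above VCF lungs (adjusted p = 0.306) and 0.87 ± 0.31 above CCF lungs (adjusted p = 0.485). The mean of 7 monocyte markers ran between 0.04 and 0.45 in RCF lungs, against -0.14 to 0.34 in control lungs, and its part in the Ccr2 values was not tested.

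Of the 5 other inflammatory CC ligands, 5 had negative differences in VCF lungs, 2 in CCF lungs and 4 in RCF lungs, and 0 were called. Ccl4, which draws T cells, NK cells and macrophages, was at -2.47, -2.43 and -1.56 in VCF lungs, at -1.58, -2.30 and -1.65 in CCF lungs and at -2.97, -2.49 and -2.25 in RCF lungs, against -1.49, -1.28, -1.62, -1.58 and -1.77 in control lungs. The RCF arrays were all below control, with a difference of -1.02 ± 0.25 or 2.03-fold (adjusted p = 0.125), while VCF 3 and CCF 1 and 3 lay within the control range. VCF lungs gave -0.60 ± 0.25 (adjusted p = 0.452), CCF lungs -0.30 ± 0.25 (adjusted p = 0.53) and the mean of the fibres -0.64 ± 0.19 (adjusted p = 0.0946). A second Ccl4 probe gave -1.04 ± 0.26 in RCF lungs (adjusted p = 0.122 over 37970 probes).

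Ccl5, known as RANTES and made by T and NK cells among others, was at 2.72, 2.76 and 3.12 in VCF lungs, at 4.04, 2.86 and 3.92 in CCF lungs and at 2.70, 3.19 and 3.69 in RCF lungs, against 3.58, 3.47, 3.71, 3.75 and 3.43 in control lungs. The VCF arrays lay below control (-0.72 ± 0.27, adjusted p = 0.392), and the CCF and RCF arrays overlapped it (0.02 ± 0.27, adjusted p = 0.978, and -0.39 ± 0.27, adjusted p = 0.612). CCF lungs were 0.74 ± 0.31 above VCF lungs in Ccl5 (adjusted p = 0.315). In VCF lungs NK cell markers ran between -0.45 and -0.23, against -0.15 to 0.12 in control lungs, and T cell markers were low there too, as given above; their part was not tested. Ccl3, another attractant of macrophages, also lay below control on all VCF arrays (-0.63 ± 0.28, adjusted p = 0.49). Ccl6 and Ccl9, mouse macrophage chemokines, gave differences between -0.34 and 0.26 over the fibres.

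The eosinophil and type 2 ligands were not called. Ccl24, an eosinophil attractant made by macrophages, differed by -0.93 ± 0.39 in VCF lungs (adjusted p = 0.464), -0.84 ± 0.39 in CCF lungs (adjusted p = 0.222) and -0.33 ± 0.39 in RCF lungs (adjusted p = 0.804). Its highest array was control 2, at -1.11. Ccl11, or eotaxin, and Ccl17, a ligand of Ccr4, gave differences between -0.45 and 0.30 with overlapping arrays.

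**Figure D4:**
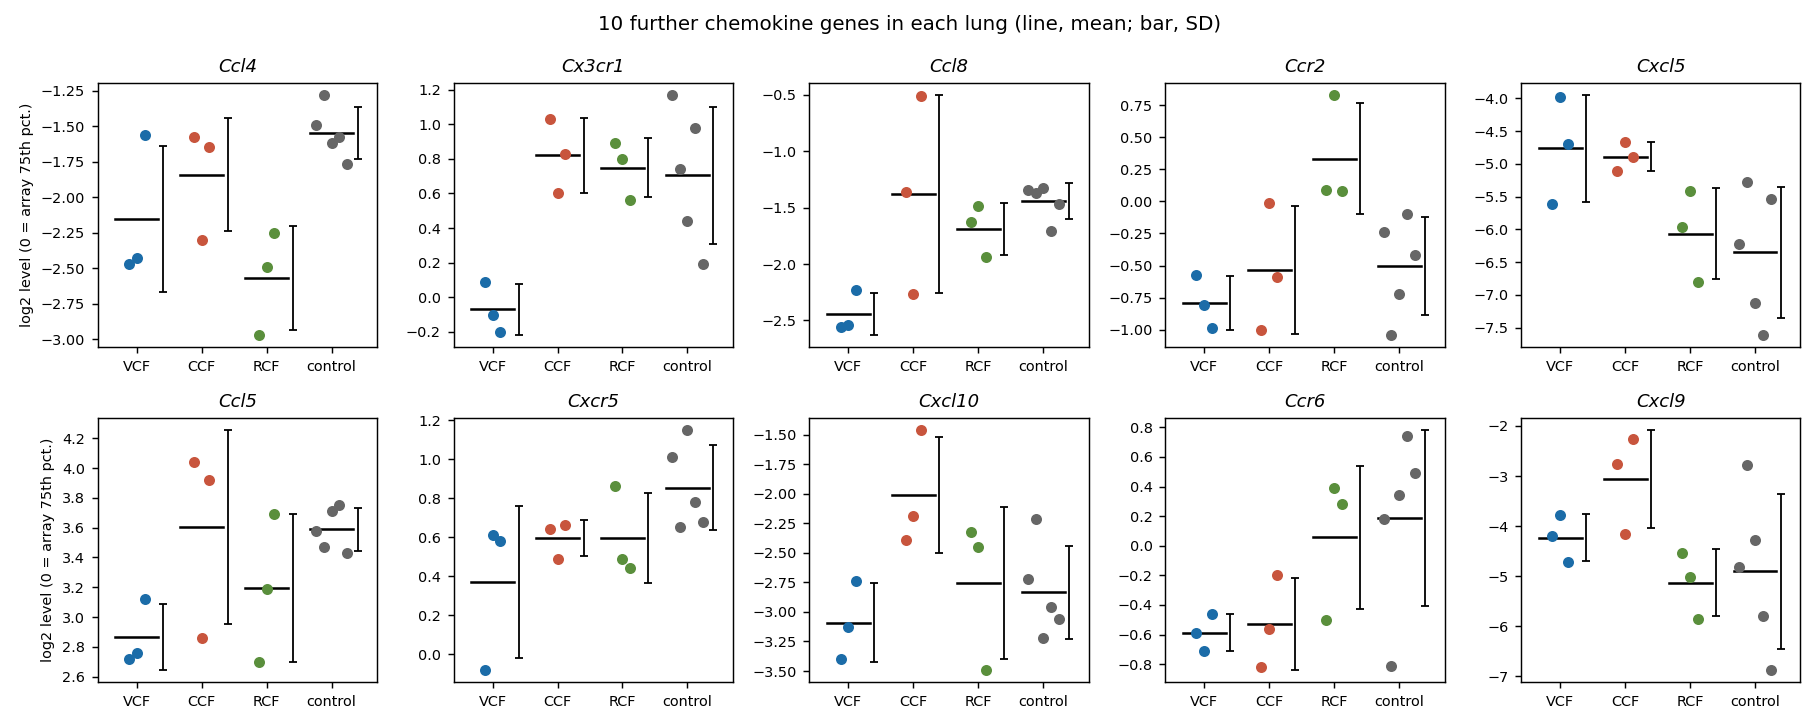
Each point is 1 lung, with its log2 level of 1 of 10 further chemokine genes, the group mean as a line and the SD as a bar. VCF lungs lie below every control lung in Cx3cr1, Ccl8, Ccl5 and Cxcr5, and RCF lungs lie below control in Ccl4 and above it in Ccr2; none of these passed the threshold.

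Among the ligands that attract neutrophils, Cxcl5 and Cxcl1 had positive differences after every fibre, and 0 of 3 were called. Cxcl5, which epithelial cells make, was at -5.61, -3.98 and -4.70 in VCF lungs, at -5.11, -4.66 and -4.90 in CCF lungs and at -5.97, -5.42 and -6.80 in RCF lungs, against -6.22, -5.27, -7.12, -7.61 and -5.54 in control lungs. It was well above background on 2 VCF arrays and on 1 array of each other group, so that most of these values are of signals near background. The CCF arrays lay above all control arrays (1.47 ± 0.55, adjusted p = 0.128), and the VCF arrays overlapped them (1.59 ± 0.55, adjusted p = 0.329), as did the RCF arrays (0.29 ± 0.55, adjusted p = 0.9). Cxcl1 gave 0.55, 0.87 and 0.21 in VCF, CCF and RCF lungs, each with a standard error of 0.40 (adjusted p = 0.742, 0.208 and 0.898). Cxcl15, or lungkine, an abundant product of mouse lung epithelium, lay below control on all VCF arrays by a small step (-0.35 ± 0.16, adjusted p = 0.51), and CCF lungs were 0.47 ± 0.18 above VCF lungs (adjusted p = 0.291).

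The interferon-induced ligands of Cxcr3, which attract activated T and NK cells, had positive differences in CCF lungs that did not pass the threshold. Cxcl10 was at -3.40, -3.13 and -2.74 in VCF lungs, at -2.39, -2.19 and -1.46 in CCF lungs and at -2.32, -2.45 and -3.49 in RCF lungs, against -2.72, -2.21, -3.22, -2.96 and -3.06 in control lungs. Control 2 lay among the CCF arrays. The CCF difference from control was 0.82 ± 0.32 (adjusted p = 0.148), and VCF and RCF lungs gave -0.26 ± 0.32 and 0.08 ± 0.32 (adjusted p = 0.893 and 0.964). CCF lungs were 1.08 ± 0.36 above VCF lungs, with no overlap (adjusted p = 0.217).

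Cxcl9 was at -4.19, -3.78 and -4.72 in VCF lungs, at -2.75, -4.16 and -2.27 in CCF lungs and at -4.53, -5.01 and -5.85 in RCF lungs, against -4.82, -2.77, -4.27, -5.79 and -6.87 in control lungs. It was well above background on 2 arrays of each fibre and on 3 control arrays. Control 2 was again within the CCF range, and CCF 2 within the control range. The CCF difference was 1.85 ± 0.77 (adjusted p = 0.17), and it was 2.38 ± 0.63 without control 2 (adjusted p = 0.0415). That was the 1 fit that passed of 14 limma fits without 1 array, where the highest adjusted p was 0.391. VCF and RCF lungs gave 0.68 ± 0.77 and -0.22 ± 0.77 (adjusted p = 0.872 and 0.956). Cxcr3 itself gave -0.37, -0.06 and -0.22 in VCF, CCF and RCF lungs, each with a standard error of 0.18.

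Stretches of the Cxcl10 and Cxcl1 promoters are shown because they held the κB matches found among the members. In Cxcl10 (GRCm38.p6, chr5:92349030-92349109, - strand) the capitals mark an ISRE core and then a κB site. In Cxcl1 (chr5:90891145-90891204, + strand) they mark 2 overlapping κB matches, 1 on each strand.
Cxcl10: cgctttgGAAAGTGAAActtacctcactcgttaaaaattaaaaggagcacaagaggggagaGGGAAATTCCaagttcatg
Cxcl1: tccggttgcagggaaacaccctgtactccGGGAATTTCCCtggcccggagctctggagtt
The κB pattern was in 2 of the 25 genes with a window, where 1.47% of all 32851 windows held it. The ISRE core was in 3 (Ccl19, Cxcl10 and Cxcl14; all windows, 3.44%) and the GAS pattern in 3 (Ccl17, Ccr6 and Cxcl14; all windows, 8.3%).

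Among the mucosal and epithelial genes, Ccr6, the receptor of B cells and some T cells for Ccl20, was at -0.59, -0.71 and -0.46 in VCF lungs, at -0.82, -0.56 and -0.20 in CCF lungs and at -0.50, 0.39 and 0.28 in RCF lungs, against 0.18, -0.81, 0.34, 0.74 and 0.49 in control lungs. Control 2 was as low as the lowest CCF array, while the other 4 control arrays lay above all VCF and CCF arrays. The differences were -0.77 ± 0.32 in VCF lungs (adjusted p = 0.449), -0.71 ± 0.32 in CCF lungs (adjusted p = 0.203) and -0.13 ± 0.32 in RCF lungs (adjusted p = 0.93). Without control 2, Ccr6 gave -0.96 ± 0.23 in CCF lungs (adjusted p = 0.0316) and -0.79 ± 0.18 over the mean of the fibres (adjusted p = 0.0465). In both comparisons that was the 1 fit that passed of 14 limma fits without 1 array. The highest adjusted p among those fits was 0.446 in CCF lungs and 0.519 over the mean. The B cell markers given beside Ccr7 were low in the same lungs, and their part in the Ccr6 values was not tested.

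Cxcl16, a membrane-bound ligand of macrophages and epithelium, and Cxcl14, an epithelial chemokine, were higher on CCF than on VCF arrays with no overlap, by 0.60 ± 0.16 (adjusted p = 0.145) and 0.90 ± 0.31 (adjusted p = 0.227). Second probes gave 0.26 ± 0.17 for Cxcl16 and -0.22 ± 0.88 for Cxcl14. Against control, CCF lungs gave 0.34 ± 0.14 for Cxcl16 (adjusted p = 0.178), and its second probe gave 0.09 ± 0.15. Without control 2 the first probe gave 0.44 ± 0.11 (adjusted p = 0.0347). That was the 1 fit that passed of 14 limma fits without 1 array, where the highest adjusted p was 0.39. Cxcr6, the receptor of Cxcl16 on resident lymphocytes, lay below control on all RCF arrays (-0.38 ± 0.25, adjusted p = 0.589). With a second Cxcr6 probe (-0.32 ± 0.26) the RCF and control arrays overlapped. Ccl20 was well above background on 7 arrays, 2 of them controls, and gave 0.95, 1.70 and -0.21 in VCF, CCF and RCF lungs with a standard error of 0.79. Ccl25, which guides cells of gut and thymus, differed by -0.09 to 0.21, and by 0.26 to 0.83 with a second probe.

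By kind, all 8 measured receptors had negative differences in VCF lungs, with a median of -0.43, and 4 of them lay wholly below control (all genes, 3.91%). In CCF lungs 7 of the 8 were negative (median -0.16) and in RCF lungs 6 (median -0.22). The 26 measured ligands had medians of -0.27, 0.12 and -0.16 in VCF, CCF and RCF lungs. The ligands' mean level, set to 0 in control lungs, was -0.50, -0.08 and 0.01 on VCF 1, 2 and 3, against -0.24 to 0.34 in control lungs. It ran between 0.05 and 0.54 in CCF lungs and between -0.31 and 0.01 in RCF lungs. The receptors' mean level, set to 0 in control lungs, ran between -0.56 and -0.40 in VCF lungs, between -0.41 and -0.14 in CCF lungs and between -0.18 and -0.04 in RCF lungs, against -0.20 to 0.11 in control lungs.

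Between fibres no member passed the threshold. Limma called 0 of 34 in CCF against VCF lungs (all genes, 0.222%), 0 in RCF against VCF lungs (all genes, 0.00982%) and 0 in RCF against CCF lungs (all genes, 0.00327%). At an unadjusted p under 0.05 it counted 8 members higher and 0 lower in CCF against VCF lungs (all genes, 7.56% and 6.21%), 4 higher and 0 lower in RCF against VCF lungs (6.17% and 2.88%), and 2 higher and 3 lower in RCF against CCF lungs (5.88% and 3.38%). In CCF against VCF lungs 29 members had positive differences and 5 negative ones, with a median of 0.31 beside 0.01 for all genes. The 6 members wholly higher in CCF than in VCF lungs were Cx3cl1, Cx3cr1, Cxcl10, Cxcl14, Cxcl15 and Cxcl16, and 0 were wholly lower (all genes, 10.7% higher and 8.34% lower). In RCF against VCF lungs 5 lay wholly higher and 1 lower (all genes, 10.5% and 5%), and in RCF against CCF lungs 2 higher and 5 lower (all genes, 8.82% and 7.13%).

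Members that lie next to each other on a chromosome were compared by order alone. The 5 genes Ccl2, Ccl7, Ccl11, Ccl12 and Ccl8, which follow each other on chromosome 11, all had negative differences in VCF lungs (-1 to -0.14) and in RCF lungs (-0.25 to -0.09), and 4 of 5 had positive ones in CCF lungs (-0.14 to 0.37). Of the 5, Ccl8 alone lay below control on all VCF arrays. In Ccl2, Ccl7 and Ccl12 the dim array VCF 1 was the lowest of all arrays, at -2.71, -5.55 and -2.98. Ccl7 was well above background on 2 VCF arrays. On slide 2, with 1 VCF and 1 control array, the VCF differences were 0.37, 0.06 and 0.29 in Ccl2, Ccl7 and Ccl12. They were -0.95 and -0.90 in Ccl11 and Ccl8. The 5 genes Ccl5, Ccl9, Ccl6, Ccl3 and Ccl4 all had negative differences in VCF lungs (-0.72 to -0.03), with Ccl5 and Ccl3 below control on all VCF arrays. In RCF lungs 4 of those 5 had negative differences (-1.02 to 0.26), and in CCF lungs 2 had (-0.30 to 0.22).

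The rest of the pathway was taken from lists of 11 other chemokines, 9 other receptors, 7 atypical and chemerin-type receptors and 26 signal transducers. Of the other chemokines 6 were measured and 0 were called in VCF, CCF or RCF lungs (all genes, 0.0851%, 5.99% and 0.154%). By limma 1 was lower at an unadjusted p under 0.05 in VCF lungs (all genes, 4.99%), and 0 passed that p in CCF and RCF lungs. Cxcl2, Cxcl3, Ccl1 and Ccl22 were well above background on 0 arrays. Of the other receptors described, Cxcr2 and Ccr3 were called lower in CCF lungs (all genes called, 5.99%, of which lower, 2.21%). Of the 8 measured, 0 were called in VCF or RCF lungs (all genes, 0.0851% and 0.154%), and Cxcr2 in VCF lungs gave 1.62 ± 0.52 (limma, adjusted p = 0.301).

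Cxcr2, the receptor of neutrophils for Cxcl1 and Cxcl5, was at 0.06, 0.77 and 2.07 in VCF lungs, at -2.92, -3.43 and -2.40 in CCF lungs and at -0.55, 0.08 and -0.76 in RCF lungs, against -1.07, -1.72, 0.21, -0.93 and 0.23 in control lungs. The CCF arrays lay below all others. Cxcr2 was 4.8-fold lower in CCF lungs than in control lungs (-2.26 ± 0.52, adjusted p = 0.031) and 14.8-fold lower in CCF than in VCF lungs (-3.89 ± 0.59, adjusted p = 0.023). The call against control was lost without control 1, 4 or 5 or without any 1 CCF array (adjusted p between 0.0517 and 0.124), and that against VCF without VCF 2, VCF 3 or any 1 CCF array (adjusted p between 0.0601 and 0.107). The call against control was also lost with normexp (-1.66, adjusted p = 0.0531), with all genes tested (0.074), with only CCF and control arrays (0.0663) and without the 3 dimmest arrays (0.111). The call against VCF was also lost with all genes tested (adjusted p = 0.0568), with only CCF and VCF arrays (0.257) and without the 3 dimmest arrays (0.126). Neutrophil markers, 9 of 10 measured, were between -1.20 and -0.41 in CCF lungs and between 0.45 and 1.36 in VCF lungs, against -0.43 to 0.66 in control lungs. Of them S100a8, S100a9 and Retnlg were called lower in CCF lungs (-1.85, -1.68 and -1.69), where 2.21% of all genes were called lower. The part of these cells in the Cxcr2 difference was not tested.

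Ccr3, the eotaxin receptor of eosinophils, was at -2.70, -3.31 and -2.90 in VCF lungs, at -4.55, -3.47 and -4.20 in CCF lungs and at -2.39, -3.12 and -3.11 in RCF lungs, against -3, -2.69, -2.79, -2.66 and -2.70 in control lungs. It was 2.47-fold lower in CCF lungs (-1.30 ± 0.25, adjusted p = 0.0173), a call lost without CCF 1 or CCF 3 (adjusted p between 0.0569 and 0.0632). With normexp background correction the difference was -0.56 (adjusted p = 0.0415). With only CCF and control arrays fitted, the adjusted p was 0.0548. The mean of 7 measured eosinophil, basophil and mast cell markers of 8 was between -0.77 and -0.51 in VCF lungs, -0.65 and -0.41 in CCF lungs and -1.19 and 0.18 in RCF lungs, against -0.43 to 1.11 in control lungs. Il5ra was well above background on all 14 arrays and Epx, which defines eosinophils, on 0, and the part of these cells in the Ccr3 difference was not tested.

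The atypical receptors bind chemokines without the usual G-protein signal. Ackr2, a scavenger of inflammatory CC chemokines, was at 2.54, 2.56 and 2.81 in VCF lungs, at 2.91, 3.16 and 2.98 in CCF lungs and at 2.66, 2.73 and 3.08 in RCF lungs, against 2.18, 2.35, 2.73, 2.37 and 2.58 in control lungs. It was the 1 of 7 called (all genes called in CCF lungs, 5.99%), higher in CCF lungs by 0.58 ± 0.15 (adjusted p = 0.0484), and a second probe gave 1.78 ± 0.21 (adjusted p = 0.00475 over 37970 probes). The call held in 2 of the 14 fits that left out 1 array, those without control 3 or RCF 3, and the adjusted p was between 0.0501 and 0.169 in the others. It was also lost with all genes tested (0.132), with only CCF and control arrays (0.105) and without the 3 dimmest arrays (0.167). Ackr4, which scavenges Ccl19, Ccl21 and Ccl25, was at -4.59, -4.29 and -3.81 in VCF lungs, at -2.64, -2.78 and -3.41 in CCF lungs and at -2.26, -2.61 and -2.85 in RCF lungs, against -2.30, -2.90, -2.54, -2.28 and -3.26 in control lungs. The VCF arrays lay below all others, 2.98-fold below control (-1.58 ± 0.28, adjusted p = 0.0666). Ackr4 was well above background on 13 arrays. Its VCF 1 value lay under the lowest level well above background on that dim array (-3.553).

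**Figure D5:**
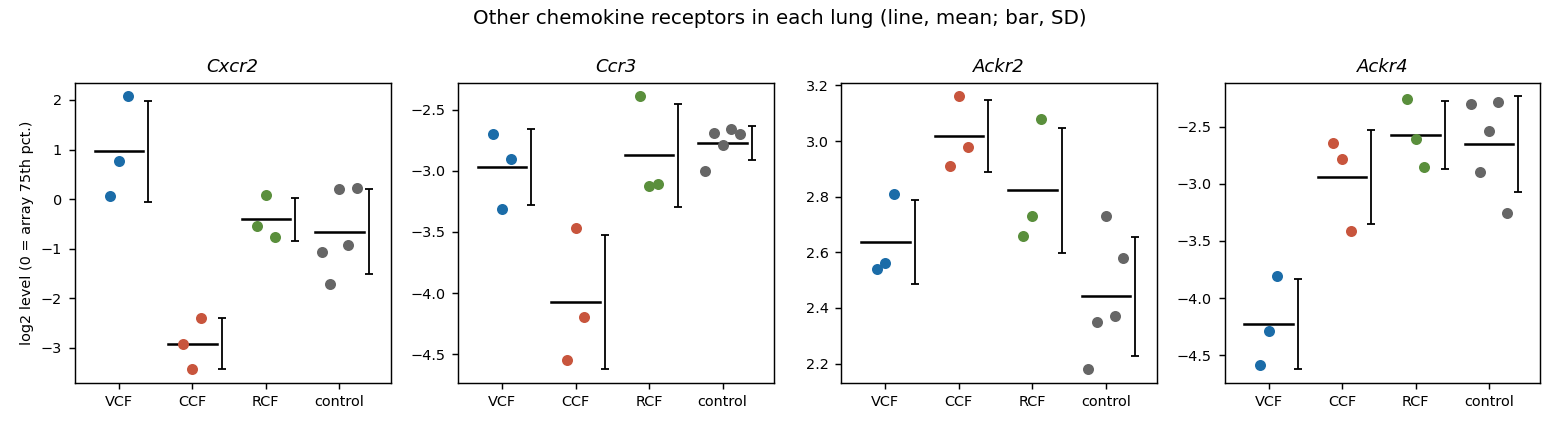
Each point is 1 lung, with its log2 level of a receptor outside the list of 36, the group mean as a line and the SD as a bar. CCF lungs lie below all control lungs in Cxcr2 and Ccr3 and above them in Ackr2, and VCF lungs lie below them in Ackr4 (adjusted p = 0.0666).

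Of the 26 signal transducers, all measured, 1 was called higher in CCF lungs (all genes called, 5.99%), 0 in VCF lungs (0.0851%) and 0 in RCF lungs (0.154%). At an unadjusted p under 0.05, 1 was higher and 3 lower in VCF lungs (all genes, 4.97% and 4.99%), and 3 were higher and 1 lower in RCF lungs (all genes, 8.78% and 4.15%). Over the mean of the fibres 2.58% of all genes were called, of which lower, 0.579%. Gna13, a G-protein alpha subunit, differed in CCF lungs by 0.68 ± 0.15 (adjusted p = 0.0273) and over the mean of the fibres by 0.49 ± 0.12 (adjusted p = 0.0488). Within slides its CCF difference was 0.86 on slide 1 and 0.25 on slide 2. The CCF call was lost without control 1, control 4 or any 1 CCF array (adjusted p between 0.0578 and 0.117), and the call over the mean held in 1 of 14 fits that left out an array, the one without control 3. The CCF call was also lost with all genes tested (adjusted p = 0.0828), with only CCF and control arrays (0.0993) and without the 3 dimmest arrays (0.128). Gng2, a G-protein gamma subunit, differed over the mean of the fibres by -0.39 ± 0.08 (adjusted p = 0.0358), with all 9 fibre arrays below the control arrays. A second Gng2 probe gave 0.04 ± 0.22, so the probes disagree, and the call held in 2 of the 14 fits that left out 1 array, those without control 2 or VCF 1.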

How the data were processed

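The deposited array files hold intensity values (processed signal, median signal, local background) read with Feature Extraction 10.7.3.1, per the file headers; RNA was Cy3-labelled on one-colour Agilent arrays, per the labels' protocols. The authors' deposited table holds log2 values: log2 processed signal minus 1 constant per array, blank for probes near background. Array medians in it were 0.296, -0.297 and -0.366 (VCF), -0.358, 0.157 and -0.337 (CCF), -0.167, -0.519 and -0.494 (RCF) and -0.0516, -0.0302, -0.292, -0.497 and -0.485 (control); it is not centred by gene, and how the constants were chosen is not known here. The array's design build is mm9 per the file headers.

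From the intensities, log2 processed signal minus each array's 75th percentile was taken, outlier spots were left out, spots of a probe averaged, and 37970 of 56605 probes well above background on at least 3 arrays kept. Of the 56605 probes 32994 had 1 symbol through RefSeq accessions and 23611 none. The probe with the highest mean stood for a gene. limma 3.58.1 in R 4.3.3 fitted the 4 groups over 14 arrays and 30567 genes (30563 where RCF takes part), two-sided, with Benjamini-Hochberg adjustment in each of 7 comparisons and a threshold of 0.05. It was tested on simulated arrays with independent noise and planted differences larger than those of the called members. That test does not cover differences of their size. The number of arrays in each group limits the precision.

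Members past the threshold, then those with the smallest unadjusted p against control, 12 in all, were described array by array and the other 22 by range or count. Members and lists were chosen with earlier results of these data known, and the Cxcr2 and Ccr3 values in CCF lungs are no independent support. The alternatives were normexp with quantile normalization, quantile normalization, 2 filters on dim probes, all probes of a gene averaged, the authors' values, slide as a block, replicate number as a block, only the groups compared, array weights, and arrays left out. 1 gene of the pathway lists is not reported here.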

Additional observations from a re-analysis of the deposited data

Results flagged for a closer look

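Cxcl13 in control 2 stood apart from the other control lungs. Its level was -1.96, the nearest control was at -3.07 and the lowest at -3.26, so that the gap made up 0.854 of the range, above Dixon's critical value of 0.71 for 5 samples. It was 1 of 34 members tested in this way in the control group, and chance flags about 1 in 20. The VCF 2, CCF 1, CCF 2, RCF 1 and RCF 2 lungs, at -1.90, -2.04, -1.87, -1.91 and -1.81, were near control 2.

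Cxcr2 differed between 2 fibres by a test of the difference itself: CCF lungs were lower than VCF lungs by a log2 difference of -3.89 ± 0.59 (SE; limma, adjusted p = 0.023). The 3 CCF lungs all lay below the control range, while VCF 1 lay within it and VCF 2 and VCF 3 above it.

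Ccr1, the receptor of Ccl3, Ccl5 and Ccl9, was left out of the tests, because its probe was well above background on only 2 fibre arrays, VCF 1 and RCF 1, and on 0 of the 5 control arrays. Both are among the 3 dimmest arrays.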

How the results depend on the processing

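No member's called difference changed sign under any alternative. Ccr7 and Cx3cl1 over the mean of the 3 fibres (2 members) and Ccr7 in CCF lungs (1 member) were past the threshold as fitted. For CCF against control the count of members was 0 with quantile normalization, with no filter on dim probes, with only the 2 groups, and without the 3 dimmest arrays; it was 2 with probes above background on all arrays, 5 with array weights, and between 0 and 5 with 1 array left out, the 5 without control 2. For the mean of the fibres it was 0 with no filter and without the 3 dimmest arrays, 6 with array weights, and between 0 and 3 with 1 array left out. For VCF against control it was 1 with probes above background on all arrays (Cx3cl1) and 2 with array weights. Array weights gave RCF 2 a weight of 11.9 and called 6 members in RCF against control, 1 in CCF against VCF, 4 in RCF against VCF and 3 in RCF against CCF, each 0 as fitted. The share of all genes called under each alternative is not given here, so these counts are no result about the members. Apart from the counts set by fewer or more genes tested, or fewer arrays, the cause was not tested.

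Same-numbered arrays of different groups correlated over 0.1 in 12 of 18 pairs (median 0.181), and other pairs in 11 of 54 (median -0.0352), and 12 of the 18 and 13 of the 54 pairs shared a slide. The labels tie no number to an animal or batch and not every same-numbered pair was over 0.1, so that the lungs were not treated as paired. Only control lungs bear the numbers 4 and 5. A fit with the number as a block therefore takes nothing about the fibre differences from control 4 and control 5. With the replicate number as a block, 0 members passed in CCF against control and 0 over the mean: Ccr7 gave -0.75 (adjusted p = 0.127) and -0.73 (adjusted p = 0.171), and Cx3cl1 -0.49 (adjusted p = 0.23). The block also ended the CCF calls against control of Ccr3 (adjusted p = 0.141), Cxcr2 (0.127), Ackr2 (0.134) and Gna13 (0.135), that of Cxcr2 against VCF (0.0838), and those of Gna13 and Gng2 over the mean (0.257 and 0.265). With slide as a fixed block Ccr7 kept adjusted p of 0.0441 and 0.0221, and Cx3cl1 0.0229. The mean of the fibres has no fit with only 2 groups. Low signal on VCF 1, CCF 2 and RCF 1 limits the measurement of dim genes there.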
